A study of Mus musculus with 6 samples.

Results

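The genes described here were silent or nearly so in control cells and read in every mutant library. They were chosen by their level alone: a normalized count under 5 in each of the 3 THC libraries and of at least 20 in each of the 3 TKO libraries. Of 55487 genes in the table, 17 met the rule, which is 0.0306% of all genes and 0.0497% of the 34213 genes that lay under 5 in every THC library. A normalized count is the number of reads assigned to a gene, divided by a scaling factor of its library. The difference between the genotypes is what selected these genes, so their levels are given as a description and no test of that difference is made.

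YFP+ cells were sorted from the adult mouse subventricular zone (SVZ), where neural stem cells reside beside the lateral ventricles. THC stands for Rb(F/+);p107(+/-);p130(F/+) and TKO for Rb(F/F);p107(-/-);p130(F/F), where F is a floxed allele. All mice were of the background C57BL/6;Sv/129 and carried NestinCreERT2 and the R26;EYFP reporter. From the age of 6 to 10 weeks they received tamoxifen at 200 mg/kg per day for 5 days, and cells were taken 10 days after the last dose. The THC controls therefore also had Cre, tamoxifen and 1 null allele of p107, and can lose 1 allele each of Rb and p130. Each library pooled the SVZ of several mice to reach at least 200000 YFP+ cells. In each genotype, 1 library (number 1) belonged to the batch labelled February and 2 (numbers 2 and 3) to the batch labelled November. Recombination was limited to cells with activity of the Nestin-driven Cre and their progeny, and no line or mouse is resolved within a pool. Because the mice were pooled, p-values measure the spread between pools.

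pRb, p107 and p130 are the pocket proteins. They bind E2F transcription factors and hold down the genes needed for DNA replication and mitosis, and p107 and p130 are part of the DREAM complex, which keeps cell cycle genes silent in resting cells. E2F4 and E2F5 also have a use outside the cell cycle: in multiciliated cells, such as the ependymal cells that line the ventricles, they act with the geminin-family protein multicilin (the product of Mcidas) to switch on the genes for making many centrioles. A gene that is silent in a tissue can be one for another cell type, a pseudogene (a decayed or reverse-copied gene), or a long noncoding RNA.

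Depth was alike, at 15536084 to 16961817 reads per library, so 1 read corresponded to a normalized count near 1. Rbl1, which encodes p107, was at 520, 497 and 646 in THC 1, 2 and 3 and at 42.0, 18.3 and 14.5 in TKO. Rb1 was higher in TKO, at 2022, 1631 and 1895 in THC and 3350, 3573 and 2877 in TKO (0.82, limma adjusted p = 6.6e-04), and Rbl2 did not pass (-0.13, adjusted p = 0.54). Both are floxed, and counts over the whole gene do not check a deletion of part of it. Markers of SVZ progenitors were present in every library, with Sox2 at 1110 to 1753, Egfr at 2134 to 3126 and Dcx at 2510 to 5386. Over all genes, 17278 were tested, and TKO was higher for 2469 (14.3%) and lower for 2345 (13.6%) by limma at an adjusted p under 0.05.

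The upstream sequences of 3 of the 17 genes and of Ccno, a neighbour of Mcidas, are shown first as examples of CpG-rich and CpG-free starts. Mcidas and its neighbour Ccno lie side by side in a locus for multiciliated cells and have starts rich in CpG dinucleotides, Foxn4 is the transcription factor of the 17 with the most reads, and 4932415M13Rik, a transcribed pseudogene, has no CpG. Each run covers the bases 250 to 51 before the RefSeq start (GRCm38.p6), 5′ to 3′ on the strand of the gene, and capitals mark CG. The regions are chr13:112993618-112993817 (+) for Mcidas, chr13:112987552-112987751 (+) for Ccno, chr5:114273812-114274011 (-) for Foxn4 and chr17:53716259-53716458 (+) for 4932415M13Rik.
Mcidas: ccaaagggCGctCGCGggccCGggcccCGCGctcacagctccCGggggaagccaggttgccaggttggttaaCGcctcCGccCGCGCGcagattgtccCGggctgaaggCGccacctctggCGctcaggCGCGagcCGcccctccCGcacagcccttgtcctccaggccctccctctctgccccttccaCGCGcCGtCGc
Ccno: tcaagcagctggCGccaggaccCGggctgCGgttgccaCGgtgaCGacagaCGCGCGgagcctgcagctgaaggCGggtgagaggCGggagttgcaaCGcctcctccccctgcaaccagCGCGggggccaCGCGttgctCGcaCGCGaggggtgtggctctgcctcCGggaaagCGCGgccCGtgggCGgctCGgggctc
Foxn4: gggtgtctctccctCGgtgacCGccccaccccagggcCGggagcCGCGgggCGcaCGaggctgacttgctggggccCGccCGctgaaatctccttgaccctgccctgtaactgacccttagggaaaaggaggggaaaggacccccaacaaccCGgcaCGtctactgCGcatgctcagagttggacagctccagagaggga
4932415M13Rik: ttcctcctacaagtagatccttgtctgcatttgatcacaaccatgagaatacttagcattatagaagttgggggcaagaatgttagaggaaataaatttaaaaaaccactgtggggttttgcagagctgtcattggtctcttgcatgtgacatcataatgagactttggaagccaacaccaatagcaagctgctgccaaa
In these runs CG occurs 23 times for Mcidas, 24 times for Ccno, 12 times for Foxn4 and 0 times for 4932415M13Rik.

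By annotation (GENCODE M21, GRCm38), 9 of the 17 genes were protein-coding. The other 8 were 2 processed pseudogenes, 1 transcribed processed pseudogene, 2 lincRNAs, 2 processed transcripts and 1 bidirectional-promoter lncRNA. The protein-coding share of 52.9% lay below the 82.7% of all genes tested and above the 31.3% of the 1587 genes that were under 5 in every THC library and reached 5 in at least 1 TKO library. The genes lay on 11 chromosomes, 15 had more than 1 exon block, and no gene of the rule lay within 100 kb of another.

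**Figure D1:**
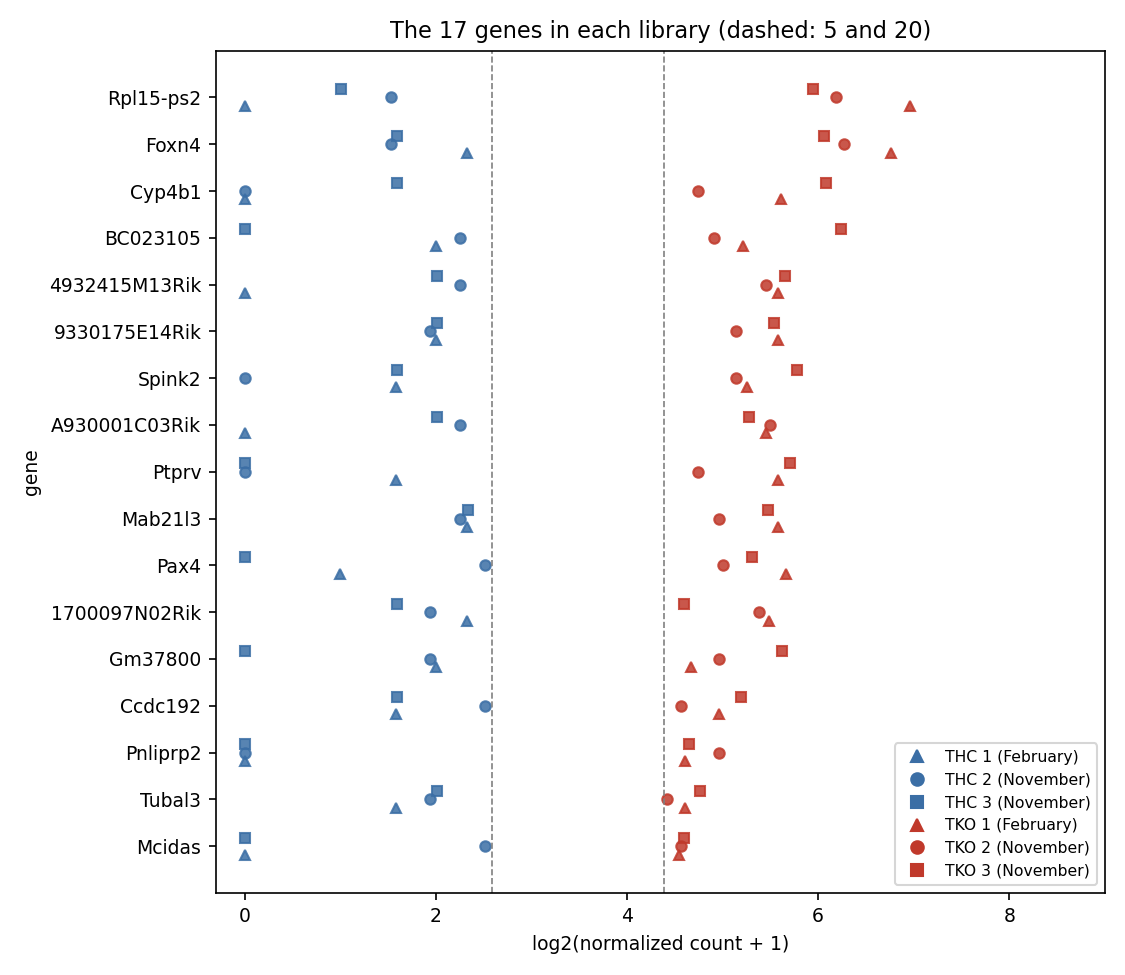
Normalized counts of the 17 genes on a log2(value + 1) scale, 1 symbol per library, with THC in blue and TKO in red. The dashed lines are the thresholds of 5 and 20 that chose the genes, so the gap between the colours is given by the rule; within TKO, Mcidas is the most even gene and Cyp4b1 the most spread.

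The first group holds 3 genes for transcriptional regulators of other cell types. Foxn4, a forkhead factor of retinal and spinal cord progenitors that also acts in multiciliated cells, was at 4.01, 1.89 and 2.02 in THC and at 108, 76.3 and 65.7 in TKO (chromosome 5, 114254164 to 114273807). Its TKO mean of 83.4 ± 22.2 (SD, n = 3) was the second highest of the 17. Pax4, the paired-box factor of endocrine cells in the pancreas, was at 1, 4.72 and 0 in THC and at 49.8, 31.2 and 38.6 in TKO (chromosome 6, 28442334 to 28449353). Mcidas was the lowest and the most even: 22.4, 22.6 and 23.2 in TKO, and 0, 4.72 and 0 in THC (chromosome 13, 112993845 to 113000394). All its THC reads came from THC 2. Per kilobase of exon the TKO mean was 24.8 for Foxn4, 27.6 for Pax4 and 9.56 for Mcidas, so Mcidas was also the lowest of these 3 on the scale on which genes can be compared.

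A second group encodes enzymes and secreted or structural proteins known from other tissues. Cyp4b1, a cytochrome P450 monooxygenase of lung and other epithelia, was at 0, 0 and 2.02 in THC and at 47.8, 25.8 and 66.6 in TKO (chromosome 4, 115624725 to 115647723). Pnliprp2, a lipase-related protein of the exocrine pancreas, had no read in any THC library and was at 23.4, 30.1 and 24.1 in TKO (chromosome 19, 58759719 to 58777534). It was the only one of the 17 without a THC read, which allows up to 3 reads over the group. Spink2, a Kazal-type protease inhibitor known from the testis, was at 2.00, 0 and 2.02 in THC and at 37.1, 34.4 and 54.1 in TKO (chromosome 5, 77205107 to 77211471). Per kilobase Spink2 had a TKO mean of 53.1, above Cyp4b1 at 20.7 and Pnliprp2 at 16.5.

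Tubal3, an alpha-tubulin-like gene, was at 2.00, 2.83 and 3.03 in THC and at 23.4, 20.4 and 26.1 in TKO (chromosome 13, 3918274 to 3935277). Mab21l3, of the mab-21 family, was at 4.01, 3.78 and 4.04 in THC and at 46.8, 30.1 and 43.5 in TKO (chromosome 3, 101813076 to 101848959). Ccdc192, a coiled-coil gene, was at 2.00, 4.72 and 2.02 in THC and at 30.3, 22.6 and 35.7 in TKO (chromosome 18, 57533780 to 57731065). Mab21l3 had the most reads in THC of the 17, with 12 over the 3 libraries. Tubal3 was low per kilobase as well, with a TKO mean of 7.38.

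Ptprv encodes a receptor-type tyrosine phosphatase known as a target of p53 in the mouse, and the annotation lists it as a processed transcript. It was at 2.00, 0 and 0 in THC and at 46.8, 25.8 and 51.2 in TKO (chromosome 1, 135108497 to 135132594). Over its 6987 exonic bases this came to 5.91 per kilobase, the lowest value of the 17. In a list of p53 target and death genes, which does not hold Ptprv, 27 of the 43 genes tested rose in TKO and 3 fell, with a median log2 difference of 1.12, against 0.00 over all genes tested, of which 14.3% were higher and 13.6% lower. Cdkn1a, which encodes the cell cycle inhibitor p21, was among those higher, by 2.49 on the log2 scale (limma adjusted p = 9.5e-07). The part of p53 in the level of Ptprv was not tested.

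Of the pseudogenes, Rpl15-ps2, a copy of the ribosomal protein gene Rpl15 within an intron of Tcf12, had the highest TKO level of the 17. It was at 0, 1.89 and 1.01 in THC and at 124, 72.0 and 60.8 in TKO (chromosome 9, 72060937 to 72061549). BC023105 (chromosome 18, 60441765 to 60442980) was at 3.01, 3.78 and 0 in THC and at 36.1, 29.0 and 74.4 in TKO. 4932415M13Rik (chromosome 17, 53716509 to 53733843) was at 0, 3.78 and 3.03 in THC and at 46.8, 43.0 and 49.3 in TKO. The TKO libraries differed strongly for the first and second of these genes and little for the third.

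The noncoding transcripts were of middle rank. 9330175E14Rik (chromosome 8, 94422898 to 94435103) was at 3.01, 2.83 and 3.03 in THC and at 46.8, 34.4 and 45.4 in TKO. A930001C03Rik (chromosome 19, 4439003 to 4448973) was at 0, 3.78 and 3.03 in THC and at 42.9, 44.1 and 37.7 in TKO. In both, the 3 TKO libraries lay close together. 1700097N02Rik (chromosome 17, 30622441 to 30626905) was at 4.01, 2.83 and 2.02 in THC and at 43.9, 40.8 and 23.2 in TKO. Gm37800 (chromosome 1, 184610280 to 184629473) was at 3.01, 2.83 and 0 in THC and at 24.4, 30.1 and 48.3 in TKO. These 2 genes were spread about as widely in TKO, but TKO 3 was the lowest library for the former and the highest for the latter.

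The levels in TKO were mostly low. Their TKO means ran from 22.7 to 85.6 with a median of 41.3, where the median over genes tested was 339. Per kilobase they ran from 5.91 to 140 with a median of 20.7, against 73.9 for genes tested. Rpl15-ps2, the shortest at 613 bases, had the value of 140, and the next highest was Spink2 at 53.1. Rpl15-ps2 thus lay at the 64.9th percentile of genes tested, and Spink2, at the 42.7th, headed the rest. The counts behind these values were 0 to 12 reads over the THC group and 68 to 257 over the TKO group. All 17 passed the filter on low values, which asked for at least 10 in 3 libraries, and passed it through TKO alone. Some other genes counted in the gene lists also passed it through TKO alone, and their calls are not read as tests. In bulk RNA a low level from every cell and a higher level from few cells cannot be told apart.

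Within TKO, the ratio of the highest to the lowest library ran from 1.03 for Mcidas to 2.58 for Cyp4b1, with a median of 1.58. For 12 of the 17 the variance of the reads over the 3 libraries exceeded their mean, a ratio that 3 libraries give only roughly. TKO 2 was the lowest library for 10 genes and TKO 3 the highest for 9. Summed over the 17 genes, the level was 801, 613 and 768 in TKO 1, 2 and 3 and 30.1, 44.4 and 27.3 in THC.

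**Figure D2:**
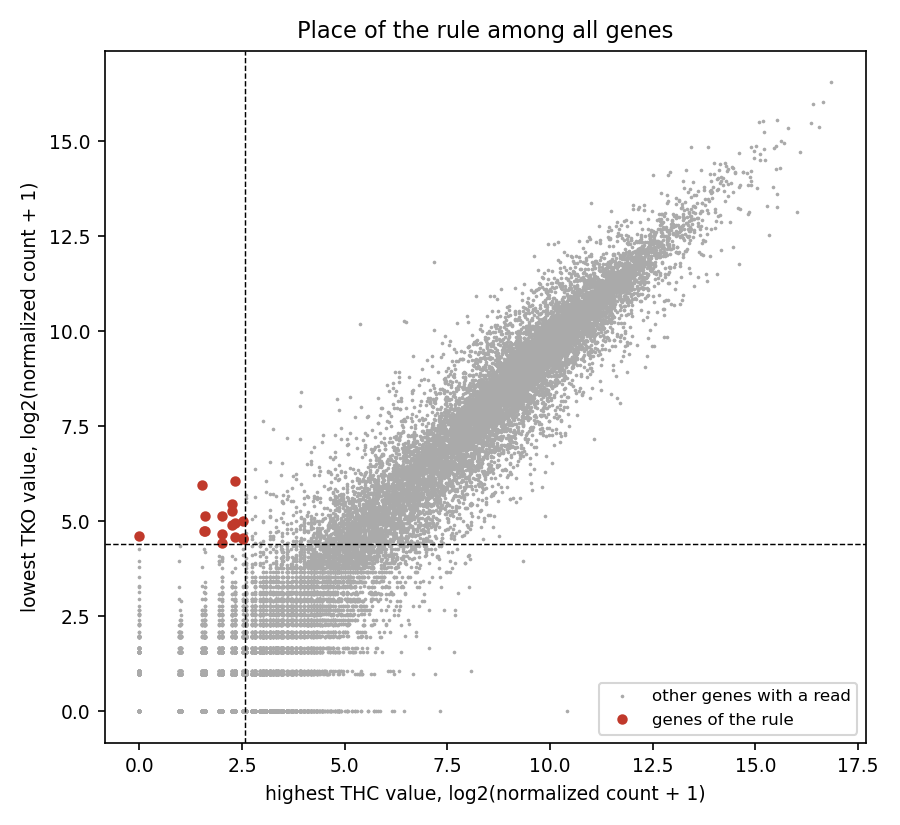
Highest THC value against lowest TKO value for each gene with a read, both as log2(normalized count + 1), with dashed lines at 5 and 20. The 17 genes (red) fill the upper left corner just above the lower threshold, and other genes continue without a gap across both lines.

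The thresholds cut through a continuum. Just inside the lower bound for TKO were Tubal3, Mcidas and Ccdc192, with lowest TKO values of 20.4, 22.4 and 22.6. Just outside it were Matn3 (lowest TKO value 19.3), A730009L09Rik (18.5) and Fst (18.3). Just inside the upper bound for THC were Ccdc192, Pax4 and Mcidas, each with 4.72 in THC 2. Just outside it were Il17f, Glycam1 and Sgca, each with 5.01 in THC 1, and Il17f reached 74.2, 48.4 and 71.5 in TKO. Of the 34213 genes under 5 in every THC library, 77 reached 20 in at least 1 TKO library, so 17 of 77 did so in all 3. Without THC 1, 31 genes met the rule in place of 17.

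The opposite pattern, at least 20 in every THC library and under 5 in every TKO library, was found for 2 genes. Gm43305 was at 100, 95.4 and 158 in THC and at 0.976, 0 and 0.966 in TKO, and Gm7805, a processed pseudogene, was at 41.1, 22.7 and 23.2 in THC and at 0 in every TKO library. Neither is protein-coding. Gm43305 lies on chromosome 14, as does Rb1, at a distance of 18.9 Mb, and among the 17 genes 9330175E14Rik shares a chromosome with a targeted gene at the closest range, 3.35 Mb from Rbl2.

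Several of the 17 sat beside or across another gene, so their neighbours were examined with limma (log2(value + 1), batch and genotype in the model, Benjamini-Hochberg adjustment over all 17278 genes). The 100 kb window was chosen with the loci known. Of 49 tested neighbours, 11 were higher (22.4%, against 14.3% of all genes) and 2 were lower in TKO. Among the 6 whose span overlapped a gene of the rule, 3 were higher, and among the other 43, 8 were higher, or 18.6%. The share among neighbours that do not overlap was close to that of all genes.

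Mcidas lies between Ccno and Cdc20b, which together form a locus whose genes act in multiciliated cells: Ccno encodes a cyclin-like protein needed for centriole amplification. Ccno, 3.07 kb away, was at 26.1, 39.7 and 43.4 in THC and at 94.7, 72.0 and 130 in TKO, higher by 1.41 on the log2 scale (SE 0.33, limma adjusted p = 0.0074). Without TKO 3 the difference was 1.23 with an adjusted p of 0.054. Cdc20b, 34.7 kb away, had no read in THC and was at 20.5, 12.9 and 23.2 in TKO. It passed the filter on low values through TKO alone, so its limma call, counted among the higher neighbours above, is not read as a test. Against the 3 reads that a THC total of 0 allows over the group, Cdc20b was at least 19-fold higher. For Ccno and Cdc20b every TKO library lay above every THC library, as for 19.4% of all genes tested, and Cdc20b missed the rule only through its 12.9 in TKO 2. Within the batches, the log2 difference of Ccno was 1.82 in February and 1.20 in November. Gpx8, which lies within the span of Cdc20b on the other strand, had a difference of 0.08 (limma adjusted p = 0.73). Dhx29 and Mtrex, the next tested genes beyond Ccno, had 0.02 and 0.24 (adjusted p = 0.93 and 0.25).

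Overlapping partners were of both kinds. Dnah8, a dynein heavy chain gene of the sperm flagellum, overlaps 1700097N02Rik on the other strand, and was at 9.02, 12.3 and 12.1 in THC and at 72.2, 99.9 and 106 in TKO (log2 difference 2.94, SE 0.35, limma adjusted p = 7.1e-05). Glo1, the glyoxalase gene whose start lies 34 bases from that of 1700097N02Rik, had THC libraries at 2992 ± 166 and TKO libraries at 3002 ± 106 (SD, n = 3) and did not pass (adjusted p = 0.98). Of the exonic bases of 1700097N02Rik, 35.1% are shared with other genes. The library chemistry, as the labels describe it, does not mark strand, so reads on these bases cannot be assigned to either gene.

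Nlrc5, the transactivator of MHC class I genes, starts 747 bases from 9330175E14Rik on the other strand. It was at 25.1, 49.1 and 25.2 in THC and at 118, 158 and 209 in TKO (2.29, SE 0.32, limma adjusted p = 2.3e-04), and only 1.31% of the exonic bases of 9330175E14Rik are shared. Because 42.3% of the exonic bases of A930001C03Rik are shared with overlapping genes, its level may include reads of those genes. Dnah8 and Nlrc5 each lie on the strand opposite to the gene of the rule that they overlap. Their log2 differences were 2.87 and 2.19 in the February pair and 2.98 and 2.33 between the November libraries, so each held in both batches.

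**Figure D3:**
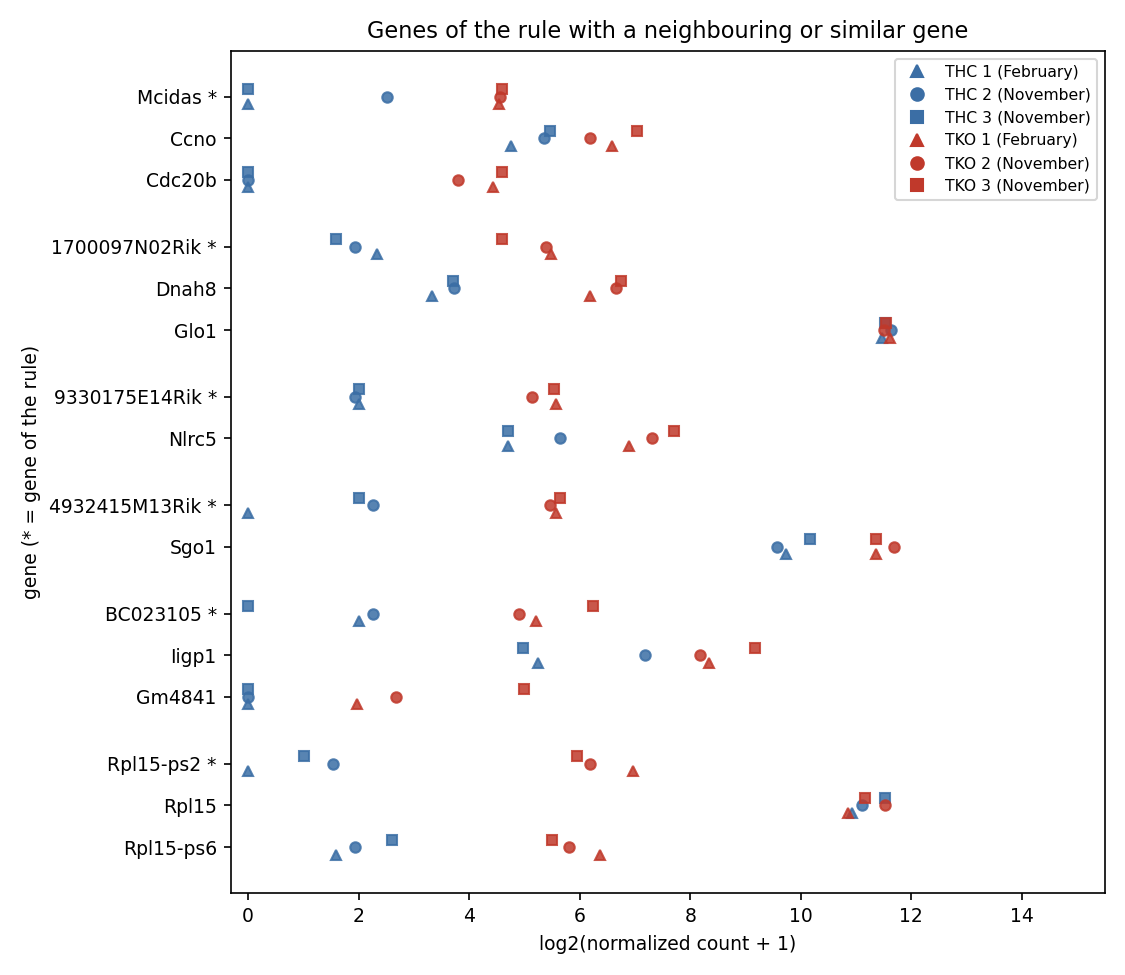
Normalized counts, as log2(value + 1), of 6 genes of the rule (marked by an asterisk) and of genes beside them or similar in sequence, 1 symbol per library. Ccno, Cdc20b, Dnah8, Nlrc5, Sgo1, Iigp1 and Rpl15-ps6 have every TKO library above every THC library, as do 19.4% of all genes tested, while the libraries of Glo1 and Rpl15 overlap.

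Other neighbours that passed lay apart from the gene of the rule. Sgo1, which encodes shugoshin, the protector of centromere cohesion in mitosis, is 27.2 kb from 4932415M13Rik and was higher by 1.65 (SE 0.16, limma adjusted p = 1.7e-05). Kat2b, Gm50240, Rest and Net1 were higher by 0.53, 0.74, 0.86 and 0.79. Net1 starts 54 bases from the GENCODE start of Tubal3. Gpr37l1, an astrocyte receptor gene 27.6 kb from Ptprv, and Hopx, 90.0 kb from Spink2, were lower by limma, with log2 differences of -1.44 and -0.57. Tcf12, whose intron holds Rpl15-ps2, had means of 2512 ± 442 for THC and 2479 ± 394 for TKO (SD, n = 3) and did not pass (adjusted p = 0.95).

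BC023105 lies among genes for interferon-inducible GTPases on chromosome 18. Iigp1, 49.1 kb away, was at 37.1, 144 and 30.3 in THC and at 325, 288 and 579 in TKO (2.77, SE 0.46, limma adjusted p = 8.6e-04). Gm4841, with 94.4% identity to BC023105 over 1215 of its 1216 bases, was at 0 in every THC library and at 2.93, 5.37 and 30.9 in TKO. BC023105, Iigp1 and Gm4841 all had their highest value in TKO 3. Reads that fit both BC023105 and Gm4841 may have been split or dropped, and how such reads were treated is not given in the sources used here. In a list of interferon-stimulated genes, which does not hold BC023105, 70 of 93 tested genes were higher and 2 lower, with a median of 1.90, where 14.3% of all genes were higher and 13.6% lower. The 70 include Ifi27l2a, Apol9b and Zbp1, which passed the filter on low values through TKO alone. Of microglia and macrophage markers, 10 of 24 tested were higher and none lower by limma (0 lower at an unadjusted p under 0.05, and 0 by edgeR and DESeq2). The count of 10 fell to 6 without THC 3 and to 2 without TKO 2. Their summed level ranged from 2533 to 8907 in THC and from 3192 to 12895 in TKO. The part of such cells, or of an interferon response, in the level of BC023105 was not tested.

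Rpl15-ps2 is also a gene with many close copies. Its 613 bases match Rpl15 with 98.7% identity, and 30 genes matched it by blastn over at least 100 bases at 80% identity or more. Rpl15 itself was at 1952, 2194 and 2933 in THC and at 1857, 2930 and 2283 in TKO, and did not pass (-0.01, SE 0.15, limma adjusted p = 0.98). Rpl15-ps6 was at 2.00, 2.83 and 5.05 in THC and at 82.0, 54.8 and 44.4 in TKO (3.85, SE 0.50), and was kept out of the rule by THC 3. Rpl15-ps6 passed the filter on low values through TKO alone, so its limma call is not read as a test. Gm4294 was at 9.02, 17.9 and 12.1 in THC and at 48.8, 38.7 and 23.2 in TKO (1.42, SE 0.47, adjusted p = 0.039). All 3 pseudogenes followed the same order in TKO, highest in TKO 1 and lowest in TKO 3, whereas Rpl15 was lowest in TKO 1. The log2 difference of Rpl15-ps6 was 4.79 in February and 3.39 in November. The other tested copy, Gm13688, did not pass (-0.76, adjusted p = 0.20). With reads of a copy this similar, the locus of origin of a single read is uncertain.

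Similar genes were also found for other genes of the rule, and 12 of the 17 had at least 1. Mcidas, 9330175E14Rik and A930001C03Rik matched 3228, 1814 and 1276 genes, among them genes read in every library. For these 3 the first-ranked match covered 6.9%, 4.37% and 21.9% of the transcript. 1700097N02Rik matched Dnah8, which it overlaps, with 99.2% identity over 29.6%. Cyp4b1 matched 2 pseudogenes, Cyp4b1-ps1 and Cyp4b1-ps2, over at most 17.5% of its transcript, and 4932415M13Rik matched 4932414J04Rik over 63.7%. Neither Cyp4b1 pseudogene nor 4932414J04Rik had a read in any library. Gm37800 matched 53 genes over part of its length, among them A730081D07Rik with 89.7% identity over 46.5%, and that gene was read in every library.

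The families of these genes are given beside the shares over all genes tested, 14.3% higher and 13.6% lower. With so few genes in each family, no count is read as a difference from those shares. Both other genes of the geminin family of Mcidas, Gmnn and Gmnc, were higher. Of the other Cyp4 genes, 7 were tested, none was higher by limma (0 at an unadjusted p under 0.05, and 0 by edgeR and DESeq2) and 3 were lower. Cyp4f15 fell most, from 2762 to 387 (-2.85, limma adjusted p = 1.0e-06). Of the other alpha-tubulin genes, Tuba1b and Tuba1c were higher by 0.83 and 2.17, and Tuba1a and Tuba4a were lower, by -0.77 and -1.77. Pax6, the 1 other Pax gene that was tested, did not pass (0.38, adjusted p = 0.054). Foxn2 was higher by 0.58 (adjusted p = 0.041) and Foxn3 did not pass (-0.12, adjusted p = 0.49). Among 18 tested genes for other receptor-type phosphatases, 5 were lower and none higher by limma (1 at an unadjusted p under 0.05, and 0 by edgeR and DESeq2). The other Spink, Mab21l and Pnlip genes were too low to be tested.

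Mcidas and Foxn4 both belong to the control of multiciliated cells, and a list of 15 regulators of that fate was made after the 17 genes had been seen. Of its 13 genes outside the rule, all tested, 7 were higher and none was lower by limma (0 lower at an unadjusted p under 0.05), against the 14.3% and 13.6% of all genes. The median was 0.64, and Cdc20b, among the 7, had passed the filter on low values through TKO alone. edgeR called 7 higher and DESeq2 called 6, both with 0 lower. Without THC 1, and likewise without TKO 1, limma called 5 higher and 1 lower. Gmnn, which encodes geminin, an inhibitor of replication licensing and a relative of multicilin, was higher by 2.12 (SE 0.18, adjusted p = 6.1e-06). Deup1, needed for the deuterosome in which centrioles multiply, rose from 156 ± 68.5 to 489 ± 135 (SD, n = 3 each), by 1.70 (SE 0.30, adjusted p = 0.0012). Its difference varied between the batches, with 2.74 in February and 1.19 in November. E2f5 was higher by 0.64 (adjusted p = 0.0021) and Gmnc, the geminin relative upstream of Mcidas, by 0.97 (adjusted p = 0.048).

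The remaining regulators also varied between the batches or did not pass. Foxj1, the master factor of motile cilia, was at 289, 746 and 684 in THC and at 926, 689 and 714 in TKO, a log2 difference of 0.54 (adjusted p = 0.16) that was 1.68 in the February pair and -0.03 between the November libraries. Trp73 had 1.94 in February and -0.57 in November (adjusted p = 0.67), and Myb passed (0.76, adjusted p = 0.016) with 1.45 and 0.41. Without THC 1, Myb was at 0.41 with an adjusted p of 0.12, and without TKO 1 at 0.41 with 0.14. E2f4 did not pass (0.08, adjusted p = 0.69), nor did Rfx2, Rfx3 and Ccdc78. For the 13 genes the median was 1.45 in February and 0.41 in November.

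Ependymal cells are the multiciliated cells of this niche, and markers of the ependyma and choroid plexus were examined for that reason. Of 18 tested, 1 was higher and 4 were lower, against 14.3% and 13.6% of all genes tested. The median was -0.20, and of the 24 listed none was at 0 in all libraries. The summed level of these markers was 25416 to 34305 in THC and 17708 to 25060 in TKO, but the sum rested on Tmem47 and Enpp2. Without these it was 5730, 17983 and 15749 in THC 1, 2 and 3 and 11290, 7427 and 9972 in TKO, so that the groups overlapped and THC 1 was the lowest library. Of the 11290 in TKO 1, 1887 came from Ttr, which was at most 12.6 in any other library. THC 1 stood apart in ciliary genes such as Rsph1, a gene of the motile cilium, at 604 in THC 1 and 1398 to 2194 in the other libraries. The median was 0.68 in the February pair and -0.76 in November. The part of ependymal cells in the levels of Mcidas and Foxn4 was not tested.

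**Figure D4:**
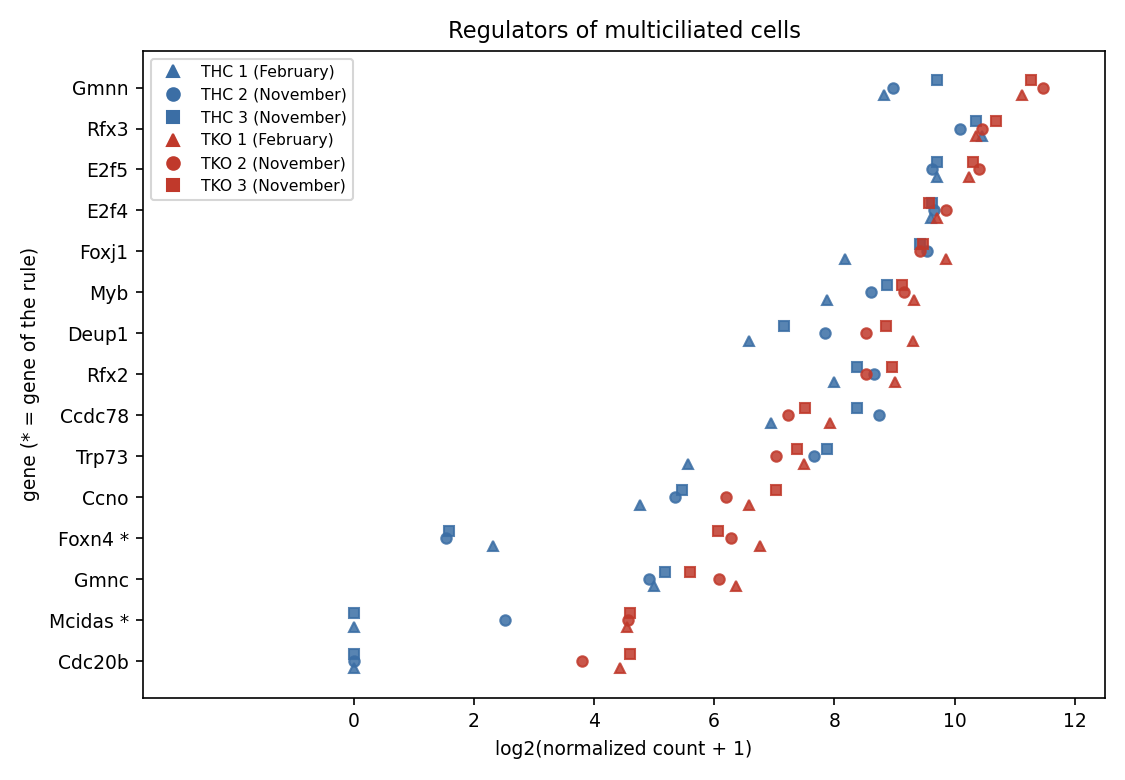
Normalized counts, as log2(value + 1), of 15 regulators of multiciliated cells, ordered by TKO mean, 1 symbol per library; asterisks mark Foxn4 and Mcidas, which the rule selected. THC 1 (blue triangles) is the lowest library for Foxj1, Trp73, Myb and Deup1, and the November libraries of the genotypes lie together for Foxj1.

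The 17 genes were also set beside 28 gene lists for other tissues, for cell types of the niche and for stress and immune programmes, 1253 of whose 1267 genes were found in the table. The lists held 1 of the 17, Pax4. Of the other 132 developmental transcription factors in its list, 84 were under 5 in every THC library and none of those reached 20 in any TKO library. Of 29 tested, Snai2 was higher (1.20, limma adjusted p = 0.030) and Foxf2 lower (-1.26, adjusted p = 0.013), and the median was -0.33. All 39 Hox genes were under 5 in every THC library and none was tested. Liver, pancreas and gut genes, the native class of Pnliprp2, had 8 members tested, of which 1 was higher and 3 were lower. The higher gene, Lgr5, was at 34.1, 7.55 and 1.01 in THC and at 48.8, 39.8 and 49.3 in TKO. Beside this list and the developmental factors, the shares over all genes tested were 14.3% higher and 13.6% lower. The summed level of the liver, pancreas and gut genes was 2123 in TKO 1 and 195 to 416 in the other libraries. Most of that sum was Ttr, which is also made by the choroid plexus, at 1887 in TKO 1 and at most 12.6 elsewhere. The pancreas genes Ins1, Ins2, Prss1, Prss2 and Cpa1 had no read in any library.

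Germline lists differed from each other. For them and the cell type lists that follow, the shares over all genes tested were 14.3% higher and 13.6% lower. Of germline RNA and transposon control genes, 1 of 18 tested was higher and 3 were lower (median -0.35), and of oocyte and early embryo genes 1 of 9 was higher and 1 lower (median -0.11). Of the meiotic chromosome genes, 14 of 24 tested were higher and 1 was lower, but none of the 15 that were under 5 in THC reached 20 in TKO. Of spermatid and sperm genes, which are the kind of Spink2, 4 of 13 tested were higher and none lower by limma (2 lower at an unadjusted p under 0.05, and 0 by edgeR and DESeq2). Prm1, Prm2, Odf1 and Akap4 had no read in any library. Among T and NK cell markers, Trac and Trbc2 were higher by 1.02 and 2.63 of 5 tested, Trac with a limma adjusted p of 0.048. Trbc2 passed the filter on low values through TKO alone. The summed level of these markers was 167 to 180 in THC and 211 to 244 in TKO, and Cd3d, Cd3e, Cd3g and Cd8a had no read in any library. Endothelial and mural markers were lower for 18 of 25 tested and higher for 1 (median -1.25), and erythroid markers were lower for 5 of 7 (median -1.86). The part of any of these cells in the 17 genes was not tested.

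Upstream sequence was available for 11 of the 17 in RefSeq (14 windows of 250 bases before a start, GRCm38.p6), and was compared with all 32851 windows. Ptprv, Gm37800, Ccdc192, BC023105, Rpl15-ps2 and Pax4 had no window and were not searched. The RefSeq starts of Tubal3 and Mab21l3 lie inside the GENCODE spans of these genes, so their windows are not at the GENCODE starts. Words of the E2F type were sought on both strands: TTTCCCGC, TTTGGCGC, TTTCGCGC and TTTGCCGC, and the same words without their first T. None of the 11 held an 8-letter word, which 2.16% of the 27025 genes with a window held. The 7-letter words, which every 8-letter match also contains, were in the windows of A930001C03Rik and Tubal3, 2 of the 11, and in those of 9.01% of genes. They are shown in capitals with their surroundings, beside the window of Cdc20b, which held a pair of them. The regions are chr19:4439255-4439284 (+), chr13:3924515-3924544 (+) and chr13:113035162-113035191 (+), and the words begin 60, 172 and 209 bases before the RefSeq start.
A930001C03Rik: gtgacgtcTTCCCGCagcccccgtcgccca
Tubal3: aggtgtagTTGGCGCaaacttcatcacacc
Cdc20b: gaaggaggTTCCCGCtttgaTTGCCGCccc
A match describes the letters and not the binding of a factor.

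Other words were sought in the same way. An interferon-response type word, TTTCNNTTTC, was in none of the 11, which do not include BC023105, and in 3.46% of genes. TATAAA was in none, against 14.3%. CCAAT was in 3 of the 11 (4932415M13Rik, 9330175E14Rik and Mab21l3), against 37.5% of genes. The CHR words TTTGAA and TTCGAA were in 9330175E14Rik and Cyp4b1, against 19.6%, and the E-box CACGTG was in 9330175E14Rik alone, against 6.86%. With 11 genes, none of these counts is read as a difference from all genes.

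The windows also differed in CpG content. The number of CpG in 250 bases ran from 0 for 4932415M13Rik to 31 for the second window of A930001C03Rik, with a median of 8, against 6 over all windows. Mcidas had 27 (91.4th percentile), Ccno 26, Cdc20b 18 and Foxn4 17, while Tubal3 and 9330175E14Rik had 2 each and Cyp4b1 had 3. The windows thus included both CpG-rich and CpG-poor ones.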

How the data were processed

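The authors' deposited table holds a normalized count (a signal) for each of 55487 genes in 6 libraries. Per the submitters' processing notes, HISAT2, featureCounts from Subread and DESeq2 were used with GRCm38; their versions, the annotation and how multi-mapping reads were handled are not stated there. Per the labels' protocols, SMART-Seq v4 gave the cDNA and Nextera XT the libraries. In each library the deposited values were whole multiples of 1 step for 100% of values (tolerance 0.001 reads), which gave the reads behind them, and counts in the text called reads are these. The levels set for the 17 genes used the deposited values. The authors' deposited table also holds their log2 fold changes with standard errors, a test score, and p-values with adjusted p-values, which were not used.

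Differences were computed on log2(value + 1) with limma 3.58.1 in R 4.3.3, with an intensity trend, batch and genotype in the model and Benjamini-Hochberg adjustment, over genes with at least 10 in at least 3 libraries. The fit was tested on simulated data. Alternatives were edgeR 4.0.16 and DESeq2 1.42.0 on the recovered reads, other thresholds and scalings, batches and libraries left out. Spans, exons and lengths are from GENCODE M21, which matched 55227 genes by identifier, and upstream windows are from RefSeq. Similar genes were sought with blastn.

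The genes and lists were chosen with earlier results of these data known, and the windows, the tissue groups and the list of multiciliated cell regulators were made after the 17 genes were seen. Named were all 17, the nearest 3 genes outside each threshold, called neighbours within 100 kb, genes similar in sequence and examples of lists. 1 neighbour of A930001C03Rik is not reported here.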

Additional observations from a re-analysis of the deposited data

How the results depend on the processing

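The number of genes off in THC and on in TKO, 17, depends on the thresholds and on how many libraries must meet them. It was 2 with an upper bound of 2 for THC, 56 with 10, 47 with a lower bound of 10 for TKO and 2 with 50. It was 114 in the February pair alone, 35 in the November libraries alone, and 21 to 31 with 1 library left out, the most without THC 1. On reads without scaling it was 13 (Ccdc192, Mcidas, Pax4 and Tubal3 drop out), and with TMM scaling 17. The other 13 genes met the rule under each of these settings except the changed thresholds. Leaving libraries out cannot remove a gene that meets the rule in all of them, so apart from the thresholds only the scaling could do so. The opposite pattern, 2 genes, was found for 17 with a bound of 10 for TKO, 23 with a bound of 10 for THC, 1 with 50, 69 in February, 15 in November, and 4 to 7 with 1 library left out. Fewer libraries make both rules easier to meet.

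Over all genes, counts stayed within 1.5 times of 2469 higher and 2345 lower: 1890 to 2521 and 1637 to 2413 over the alternatives. On the recovered reads edgeR called 2365 higher and 2413 lower, and DESeq2 2485 and 2377. The 11 higher neighbours were 9 without TKO 3 and 11 under the other alternatives. Without a batch term, 0 of the 24 microglia and macrophage markers were called by limma (0 also at an unadjusted p under 0.05). Same-numbered libraries did not pair (correlations of their deviations 0.231, -0.106 and 0.141), and with the replicate block 2147 genes were higher and 1922 lower. Differences that changed sign were small or rested on the February pair: Foxj1 was at -0.03 without THC 1 and without TKO 1, Trp73 at -0.57 without either, and Rpl15 at 0.03, 0.11, 0.03 and 0.09 without THC 1, THC 3, TKO 1 and TKO 3. With each library left out in turn, Foxj1 ran from -0.03 to 0.74, Trp73 from -0.57 to 0.61 and Rpl15 from -0.13 to 0.11. Kat2b was at 0.49 with an adjusted p of 0.051 without TKO 3. The 17 genes rest on 68 to 257 reads over the TKO group, which limits how well their libraries can be compared.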
